A study of Mus musculus with 3 samples.

Results

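The 42 genes described here act in G2 phase and mitosis, and were taken as a named list from the 32285 genes counted in bilayered embryo-like aggregates (BELAs), Epi cysts and VE cysts made from mouse embryonic stem cells. All 42 were found in the files by symbol, and the list was chosen with earlier results of these data known. Their UMIs (unique molecular identifiers, each standing for 1 captured mRNA molecule) were summed in every cell and scaled so that all UMIs of a cell add to 1000000 (CPM), which gives each cell 1 value for the whole list. The levels of the genes and the spread of this sum over cells were then compared between libraries, between the visceral endoderm (VE) and epiblast (Epi) lineages, and between BELA VE cells with and without high Sfrp1, a secreted Wnt antagonist that marks the anterior visceral endoderm (AVE).

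All 3 libraries came from iGATA cells of the E14tg2a strain, which carry a transgene for GATA4, a driver of primitive endoderm fate. For BELAs, clone C6 received doxycycline at 0.5 µg/ml during 8 h in 2i and LIF, spent 16 h in N2B27 without it, and was re-seeded in N2B27 for 3 days, so that Epi and VE cells formed side by side. For VE cysts, the same clone received the same pulse, then doxycycline for 16 more h in N2B27 with FGF4 at 10 ng/ml and heparin at 1 µg/ml, and grew for 3 days after re-seeding with FGF4 and heparin. Epi cysts were grown in matrigel without doxycycline, for 1 day in 2i and LIF and for 3 days in N2B27. BELAs and VE cysts thus represent 1 clone, round structures were chosen by hand, and VE cysts with a visible Epi core were left out at picking. Each type of aggregate was 1 library, so differences between aggregates and differences between libraries cannot be told apart.

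Cells were kept with 4000 or more genes and with mitochondrial UMIs of 10% or less, which left 1410 of 2220 barcodes in BELAs, 657 of 1076 in Epi cysts and 625 of 881 in VE cysts, with 58554 to 82741.5 UMIs per cell in the median. No kept barcode was shared between libraries. A cell was counted as VE when the UMIs of Gata6, Sox17, Dab2 and Cubn exceeded those of Pou5f1, Sox2, Nanog and Fgf4, and as Epi otherwise. This gave 542 VE and 868 Epi cells in BELAs, 577 VE and 48 Epi cells in VE cysts, and 656 Epi cells and 1 VE cell in Epi cysts. These markers also made the classes: VE markers summed to 2842 CPM in BELA VE cells and 3003 CPM in VE cyst VE cells against 23.2 and 2.96 CPM in the Epi cells of BELAs and Epi cysts. Since each library was made once, and cells of a library are not replicates, no test between groups was made. Intervals below are 95% intervals that cover counting error only. For shares of cells they count each cell as a unit, so they do not cover differences between libraries.

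The list follows a cell from the end of DNA replication to its division. In G2, cyclin B accumulates and binds Cdk1, and activation of this kinase by Cdc25 phosphatases starts mitosis. Aurora and Polo-like kinases, kinesins and other spindle proteins then build the spindle, and the spindle checkpoint holds the cell until every kinetochore is attached. The anaphase-promoting complex, with Cdc20 and the ubiquitin-conjugating enzyme Ube2c, then marks cyclin B for destruction, and cytokinesis separates the daughters. Most of these transcripts are made periodically, and are low in cells that have just divided or have left the cycle.

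The periodic control of such genes is known to run through 2 short promoter elements, the cell cycle genes homology region (CHR, TTTGAA), which MuvB complexes bind, and the CCAAT box, which NF-Y binds. RefSeq promoter windows (GRCm38.p6, the mm10 build; 250 bases before to 50 bases after a start site) were at hand for 36 of the 42 genes, in 39 windows, and both motifs were searched on both strands, and matches that share letters were each counted. TTTGAA was present in 30 of the 39 windows (76.9%), against 17.9% of 32851 windows of all genes. CCAAT was present in 32 (82.1%), against 37.4%. Both stood together in 26 windows (66.7%), against 6.95%. Neither TTTCCCGC nor TTTGGCGC, 2 spellings of the E2F site of S phase genes, was present in a window of a G2/M gene, and 1.07% and 0.514% of all windows held them. The 120 bases before the start site are printed below for 6 genes of different roles, chosen after the search to show where the motifs lay: the mitotic kinase gene Cdk1 (chr10:69352913-69353032, minus strand), its opponent at mitotic exit Cdc20 (chr4:118437344-118437463, minus strand), the spindle motor gene Kif11 (chr19:37376262-37376381, plus strand), the proliferation markers Top2a (chr11:99024190-99024309, minus strand) and Mki67 (chr7:135716380-135716499, minus strand), and the abundant chromatin gene Hmgb2 (chr8:57511723-57511842, plus strand). They are written on the strand of the gene, with CHR and CCAAT matches of either strand in capitals, so that ATTGG is a CCAAT box and TTCAAA a CHR read on the other strand.
Cdk1: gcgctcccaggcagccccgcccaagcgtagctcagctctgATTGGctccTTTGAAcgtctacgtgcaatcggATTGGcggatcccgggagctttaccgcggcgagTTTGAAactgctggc
Cdc20: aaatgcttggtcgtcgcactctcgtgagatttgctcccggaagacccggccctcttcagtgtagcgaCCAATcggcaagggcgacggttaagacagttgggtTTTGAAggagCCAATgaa
Kif11: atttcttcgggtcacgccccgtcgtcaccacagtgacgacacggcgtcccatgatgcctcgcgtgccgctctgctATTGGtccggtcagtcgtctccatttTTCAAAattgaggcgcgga
Top2a: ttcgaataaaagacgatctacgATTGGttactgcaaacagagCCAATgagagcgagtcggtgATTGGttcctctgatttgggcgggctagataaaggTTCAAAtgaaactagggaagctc
Mki67: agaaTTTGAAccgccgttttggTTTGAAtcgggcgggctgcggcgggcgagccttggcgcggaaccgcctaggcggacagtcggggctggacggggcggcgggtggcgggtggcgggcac
Hmgb2: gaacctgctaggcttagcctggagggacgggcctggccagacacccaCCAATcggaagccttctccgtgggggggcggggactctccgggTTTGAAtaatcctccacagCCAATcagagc
In 5 of these 6 stretches a CHR lay within 30 bases of the start site, at -15 in Cdk1, -18 in Cdc20, -19 in Kif11, -23 in Top2a and -30 in Hmgb2, counted to the first base of the match. Among the 6, Mki67 differed, with CHR matches at -116 and -98 and its CCAAT boxes further upstream. The printed stretches end before the start site. In other genes the only CHR began past it, as in Cenpf (at 2), Hmmr (at 8) and Plk1 (at 30). The 6 chosen genes thus do not show a usual position for the whole list. A match of letters does not show that a factor was bound.

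Over all cells of a group, the 42 genes together were highest in Epi cells and lowest in VE cells of VE cysts. Their summed level was 7603 CPM (7583 to 7623) in BELA Epi cells, 7531 CPM (7504 to 7558) in Epi cyst Epi cells and 7369 CPM (7289 to 7451) in the 48 Epi cells of VE cysts. It was 5153 CPM (5134 to 5172) in BELA VE cells and 4170 CPM (4149 to 4191) in VE cyst VE cells. The 3 Epi groups thus lay within a narrow range, and both VE groups lay below them. The levels of single genes can be set side by side here without a correction for length, because a molecule is counted once at its 3′ end.

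**Figure D1:**
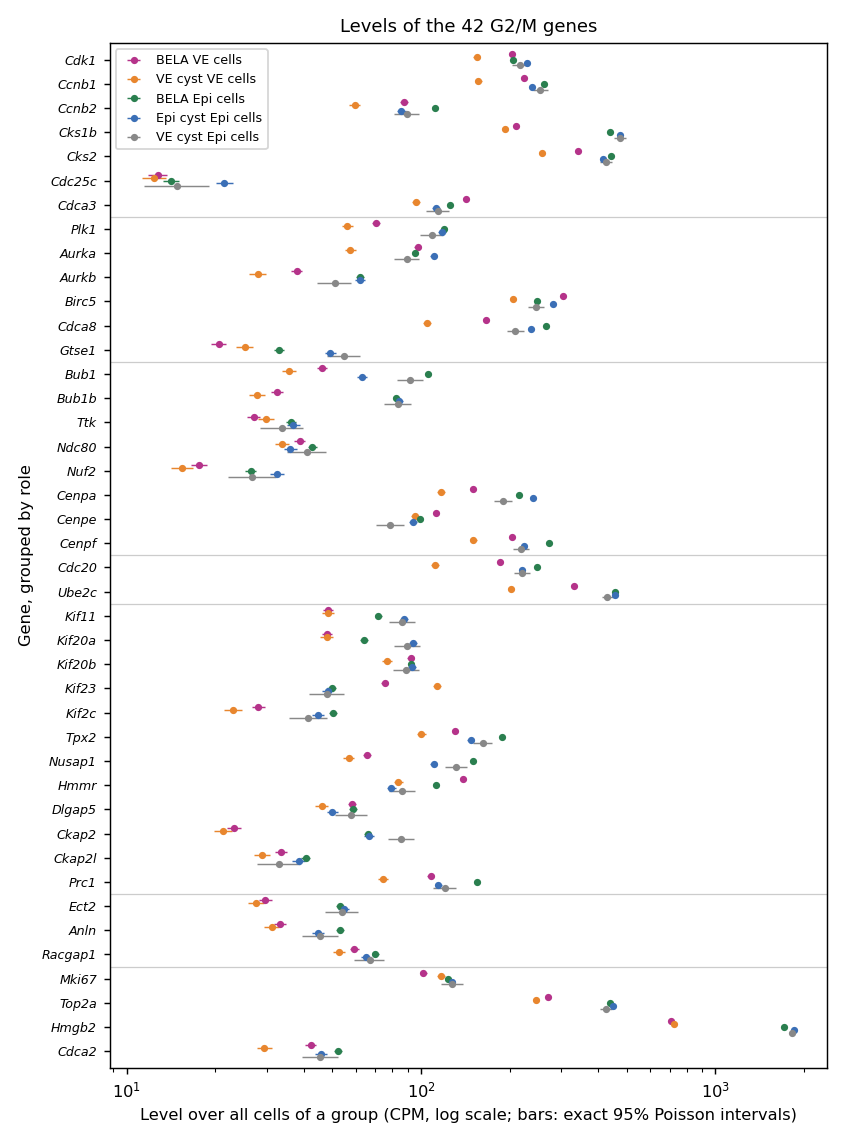
Level of each of the 42 genes in 5 groups of cells (CPM, log axis), with exact 95% Poisson intervals as bars and grey lines between the 7 role groups. Hmgb2 stands at the right edge in every group, and for most genes the VE cyst VE cells (orange) lie furthest to the left.

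Hmgb2, a chromatin protein that bends DNA, was the most abundant of the genes, with 706 CPM in BELA VE cells, 722 CPM in VE cyst VE cells, 1710 CPM in BELA Epi cells and 1848 CPM in Epi cyst Epi cells. It was similar in the VE cells of both libraries and more than 2-fold higher in both Epi groups. Among the Cdk1 partners, the small Cdk-binding subunit Cks2 stood at 342, 257, 441 and 416 CPM in the same order of groups, and the second such subunit, Cks1b, at 210, 194, 437 and 474 CPM. Of these 4 groups, Cks1b was above Cks2 in Epi cyst Epi cells only. Cdk1 itself measured 203, 155, 205 and 230 CPM, and Ccnb1, which encodes cyclin B1, 223, 157, 262 and 238 CPM. For both Cdk1 and Ccnb1 the VE cyst VE cells were the lowest group and BELA VE cells lay close to Epi cells. Ube2c, which passes ubiquitin to targets of the anaphase-promoting complex, measured 332, 202, 457 and 457 CPM. Birc5, the survivin subunit of the chromosomal passenger complex, went against the order of the lineages, with 302 CPM in BELA VE cells, above 248 CPM in BELA Epi cells and 280 CPM in Epi cyst Epi cells, and 205 CPM in VE cyst VE cells. Cenpf, a kinetochore protein, measured 204, 151, 272 and 224 CPM, Tpx2, the activator of Aurora A on the spindle, 131, 100, 188 and 148 CPM, and Racgap1, of the centralspindlin complex in cytokinesis, 59.3, 52.8, 69.9 and 65.0 CPM. The least abundant member was Cdc25c, the phosphatase that switches Cdk1 on, at 12.4 to 21.5 CPM over the 4 groups.

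The pooled sums hide how the genes were spread over cells. In Epi cells most values lay in 1 main range, with a shallow dip inside it and, in BELAs, a small separate set of low cells. The sum had a median of 6908 CPM and a 10th to 90th percentile range of 4192 to 10838 CPM in BELAs, and a median of 6873 CPM and a range of 4840 to 10304 CPM in Epi cysts. In VE cells it fell into a low range below the trough and a broad range among the values of the Epi cells. The median was 4209 CPM in BELA VE cells (737 to 10026 CPM) and 1235 CPM in VE cyst VE cells (555 to 9374 CPM). A limit of 2000 CPM was set in the trough between these ranges after the distributions had been seen. The trough was deep in VE cyst VE cells and shallow in BELA VE cells.

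**Figure D2:**
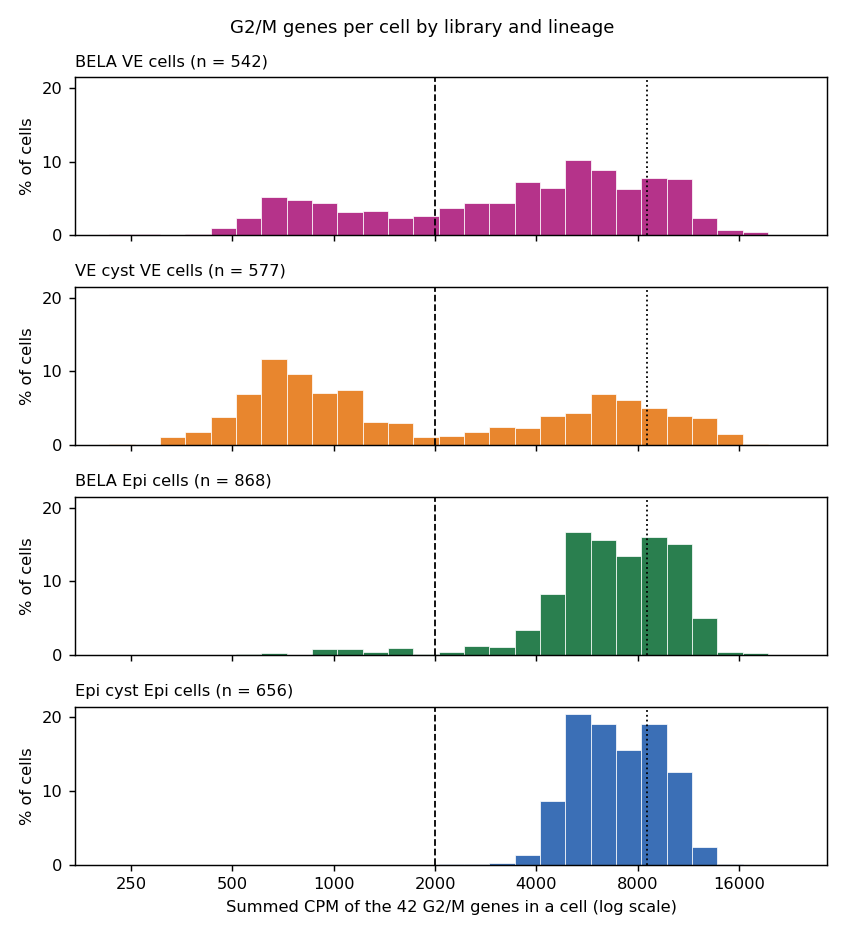
Share of cells (%) by the summed CPM of the 42 genes in a cell (log axis), for the 4 large groups. The dashed line is the limit of 2000 CPM and the dotted line the upper quartile of all kept cells (8536 CPM): both VE groups have a second range of cells to the left of the dashed line, where no Epi cyst cell lies.

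Below this limit lay 326 of 577 VE cyst VE cells (56.5%, exact binomial interval 52.3 to 60.6%) and 160 of 542 BELA VE cells (29.5%, 25.7 to 33.6%). Only 30 of 868 BELA Epi cells (3.46%, 2.34 to 4.90%) and 1 of 48 Epi cells of VE cysts lay there. In Epi cysts it was 0 of 656 Epi cells, for which the exact interval reaches up to 0.561%. The share in BELA VE cells was 27.0 percentage points lower than in VE cyst VE cells (21.3 to 32.4) and 26.1 points higher than in BELA Epi cells (22.1 to 30.2). Within 10% of the limit lay 21 BELA VE and 8 VE cyst VE cells. In steps of equal log width, 6 VE cyst VE cells lay between 1722 and 2048 CPM, against 67 between 609 and 724 CPM. For BELA VE cells these counts were 14 and 28, so that the limit splits a nearly continuous range there.

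High-scoring cells were those above the upper quartile of all kept cells, 8536 CPM. They made up 34.0% of BELA Epi cells (30.8 to 37.2%), 30.5% of Epi cyst Epi cells (27.0 to 34.2%), 16.8% of BELA VE cells (13.7 to 20.2%) and 13.2% of VE cyst VE cells (10.5 to 16.2%). The difference between the 2 VE groups was 3.62 points, with an interval of -0.57 to 7.83 that spans 0. Between the Epi groups it was 3.50 points (-1.26 to 8.18). Both differences depended on the settings. Without the 3 most abundant genes they were 4.71 points (0.19 to 9.24) and 4.82 points (0.16 to 9.39). With 1 library per aggregate, intervals that leave out 0 do not show a difference between aggregates. With the cut at the median the Epi difference was -2.87 points, and with the cut at 2 times the median the VE difference was -1.73 points. Between VE and Epi cells of the BELA library the difference was -17.2 points (-21.5 to -12.6). Its size also depended on the cut. It was -30.8 points (-35.8 to -25.6) with the cut at the median. With the cut at 2 times the median it was -2.12 points, with an interval of -4.13 to 0.08 that spans 0. Counted only among cells at or above 2000 CPM, high-scoring cells were 23.8% of BELA VE cells, 30.3% of VE cyst VE cells, 35.2% of BELA Epi cells and 30.5% of Epi cyst Epi cells. The cut runs through the middle of a continuous range, since 51, 35, 147 and 128 cells of BELA VE, VE cyst VE, BELA Epi and Epi cyst Epi lay within 10% of it.

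Depth moved with the sum. Median UMIs were 113000 in high-scoring BELA VE cells, 94045 in those between the 2 limits and 75017.5 in those below 2000 CPM, and 79860, 63808 and 52852.5 in VE cyst VE cells. With each cell thinned to 40000 UMIs, the shares below 2000 CPM were 27.6% in BELA VE cells, 54.5% in VE cyst VE cells, 2.75% in BELA Epi cells and 0% in Epi cyst Epi cells. Thinning left out 28, 104, 67 and 64 shallower cells of these groups, and each share below the limit stayed within its interval from all cells. Mitochondrial UMIs were 5.24% in BELA VE cells below the limit and 4.64% in the others, and 5.77% and 5.19% in VE cyst VE cells.

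The genes differed widely in how far they dropped in the VE cells below the limit. Since the limit is set on their own sum, these values only describe the 2 sets of cells, and all 42 genes were more than 2-fold lower below it in both libraries, where 1.58% and 2% of all genes tested were. The median ratio between cells at or above the limit and cells below was 11.3 in BELA VE cells and 20.8 in VE cyst VE cells. Nusap1, a microtubule-binding protein of the spindle, had the widest range, with 86.0 against 2.41 CPM in BELAs (35.8-fold, 25.3 to 52.4) and 114 against 0.895 CPM in VE cysts (127-fold). Cenpf followed with 268 against 7.52 CPM and 300 against 3.47 CPM. Plk1, the Polo-like kinase of mitotic entry, was at 92.0 against 3.31 CPM and at 111 against 2.57 CPM, and Top2a, which untangles sister chromatids, at 350 against 20.2 CPM and 481 against 14.3 CPM. These genes kept only a small part of their level in the cells below the limit.

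**Figure D3:**
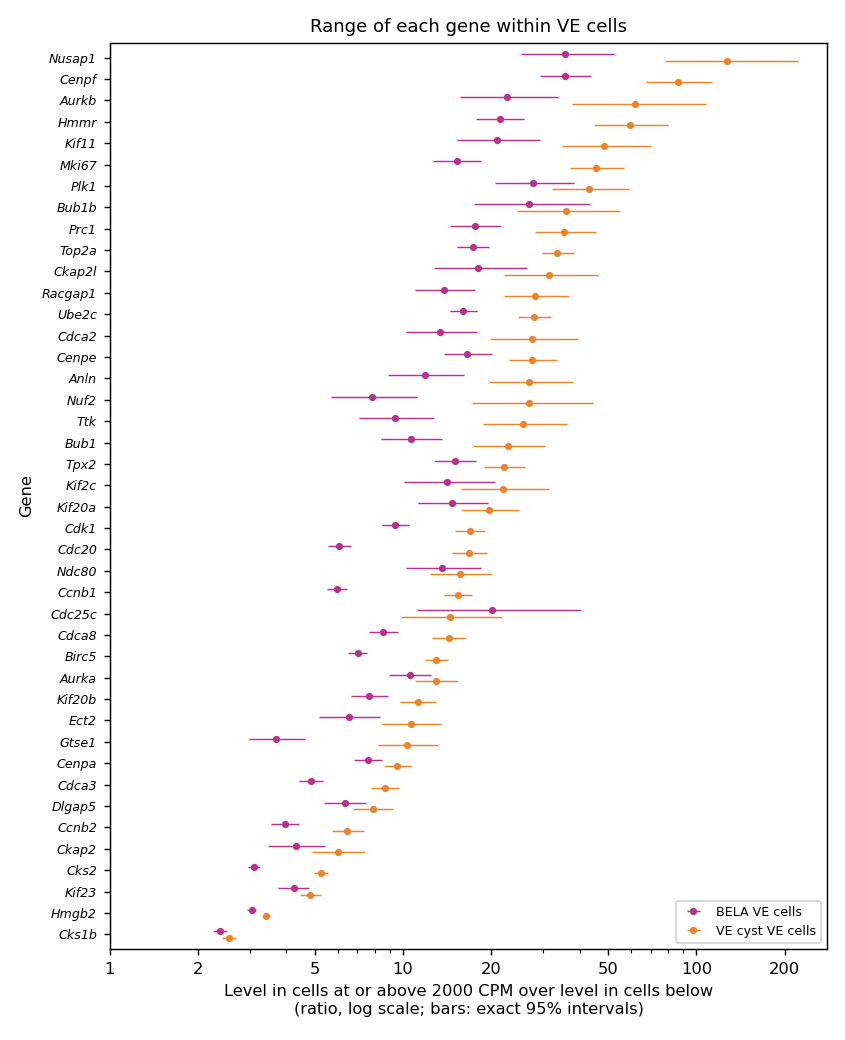
Ratio of each gene's level in VE cells at or above 2000 CPM to its level in VE cells below (log axis), with exact 95% intervals, for BELAs and VE cysts. Genes are sorted by the VE cyst ratio: Cks1b, Hmgb2, Kif23 and Cks2 lie at the bottom, Nusap1 and Cenpf at the top.

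At the other end were genes that kept a sizeable level. Cks1b, the second Cdk-binding subunit, measured 103 CPM below the limit against 245 CPM above in BELA VE cells, and 109 against 279 CPM in VE cyst VE cells, a ratio of 2.38 (2.25 to 2.52) and 2.56 (2.42 to 2.69). Hmgb2 measured 277 against 845 CPM and 329 against 1122 CPM, a ratio of 3.05 and 3.41. Kif23, the motor subunit of centralspindlin, measured 21.8 against 92.4 CPM and 38.9 against 188 CPM. Cks1b and Hmgb2 were thus the genes with the smallest range in both libraries. For 41 of the 42 genes the ratio was larger in VE cysts than in BELAs. In the 30 BELA Epi cells below the limit, Ckap2, a spindle pole protein, measured 62.8 CPM against 65.9 CPM in the other BELA Epi cells, while Cenpf measured 4.43 against 277 CPM.

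VE markers were close in VE cells below and above the limit, and summed to 2955 CPM below and 2806 CPM above it in BELAs, and to 3011 and 2994 CPM in VE cysts. The 4 Epi markers were lower below it in BELA VE cells, at 12.7 against 47.0 CPM, and cells with over 10% of their marker UMIs from the other lineage were 1.88% against 6.81%; in VE cysts the markers were at 21.2 and 16.0 CPM. The part of such mixed cells in the share was not tested beyond leaving them out, which gave a difference of -26.0 points between BELA VE and VE cyst VE cells (-31.6 to -20.2). Of the 8 AVE markers, 7 were higher below the limit in BELA VE cells, and they summed to 408 against 236 CPM. In VE cysts these markers summed to 34.5 and 44.6 CPM, with Otx2 and Cer1 near 0 in both sets.

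Outside the list, few genes separated the 2 sets of VE cells in both libraries. Of 11888 genes tested in both, 182 were more than 2-fold lower below the limit in BELAs and in VE cysts: the 42 G2/M genes, and 140 others, of which 63 were in the further cell cycle lists described below. They included Ccna2, which encodes cyclin A2, with 19.6 against 180 CPM in BELAs and 12.4 against 214 CPM in VE cysts. Esco2, the acetyltransferase of sister chromatid cohesion, measured 9.25 against 112 CPM and 2.01 against 73.9 CPM. The histone gene Hist1h2ap measured 28.9 against 277 CPM and 12.1 against 1154 CPM. In the other direction stood only 2 genes, both named after their values were seen: Mxd4, a Max partner that opposes Myc, at 37.2 against 10.7 CPM in BELAs and 104 against 35.9 CPM in VE cysts, and the apolipoprotein gene Apoa2 at 42.5 against 12.7 CPM and 80.3 against 32.6 CPM.

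S phase genes, which serve DNA replication, were read next to the G2/M genes as a second measure of the cycle. A list of 42 S phase genes summed to 1548 CPM (1527 to 1569) in BELA VE cells below the limit and to 2723 CPM (2707 to 2739) in those above, and to 1259 CPM (1243 to 1275) and 2924 CPM (2898 to 2949) in VE cysts. Of its genes, 13 of 42 in BELAs and 22 of 42 in VE cysts were more than 2-fold lower below the limit and 0 were more than 2-fold higher; the median log2 ratio was -0.70 and -1.04, against 0.02 and 0.03 over all genes tested. Cells low in G2/M genes were therefore on the whole also low in S phase genes. The 30 BELA Epi cells below the limit had 2201 CPM of S phase genes against 5589 CPM in the other BELA Epi cells, at a median depth of 45998.5 against 80343 UMIs. These sums are levels of RNA, and by themselves they do not show which cells were dividing.

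**Figure D4:**
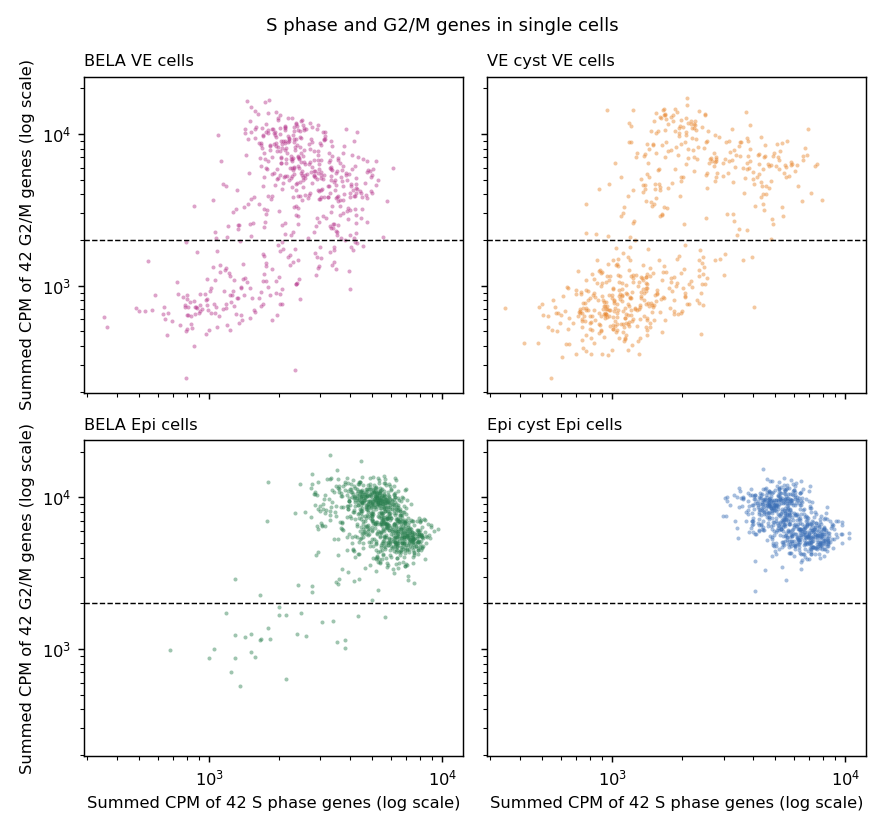
Summed CPM of 42 S phase genes (x, log axis) and of the 42 G2/M genes (y, log axis) in each cell of the 4 large groups, with the limit of 2000 CPM dashed. VE cells fill an arc that is joined to a cloud at the lower left, whereas Epi cyst cells form 1 compact group with higher S phase sums.

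Among cells at or above the limit, S phase and G2/M genes went in opposite directions. In BELA VE cells the median S phase sum was 2110 CPM in high-scoring cells and 2772 CPM in those between the limits, and in VE cyst VE cells 2067 and 2794 CPM. Epi cells showed the same order, at 4986 and 6018 CPM for BELA cells and at 5031 and 6339 CPM for Epi cyst cells. In all 4 groups the S phase sum was thus lower in the cells richest in G2/M genes.

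BELA VE cells, which grew around Epi cells, were compared with VE cyst VE cells, whose library held 48 Epi cells. VE cysts also had 16 more h of doxycycline and were grown with FGF4 and heparin. The parts of Epi cells, doxycycline, FGF4 and heparin in a difference cannot be told apart. The 42 genes together were 1.24-fold higher in BELA VE cells (1.23 to 1.24), and 37 of 42 were higher. On the log2 scale, with 5 CPM added to both levels here and in all fold calls, the median difference was 0.25 against -0.12 over all genes tested. No gene was past 2-fold in either direction, where 3.5% of all genes were; 18 of 42 (42.9%) were at least 25% higher, where 12.9% of all genes were, and 1 was at least 20% lower, where 27.5% were. The largest differences were in Aurka, which encodes Aurora A of the spindle poles, with 97.5 against 57.5 CPM (1.70-fold, 1.61 to 1.79), in Cdc20 with 186 against 111 CPM (1.67-fold, 1.61 to 1.73), and in Hmmr, a spindle assembly factor, with 139 against 83.7 CPM (1.66-fold, 1.59 to 1.74). Ube2c was 1.64-fold higher (1.60 to 1.69). Lower in BELA VE cells were Kif23 at 75.2 against 113 CPM (1.50-fold, 1.44 to 1.57), Gtse1, a microtubule-associated p53 regulator, at 20.6 against 25.2 CPM, and Mki67, which encodes the Ki-67 antigen, at 102 against 117 CPM.

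This order turned when only cells at or above the limit were compared, a split made on the same sum that is then compared. Among the 382 BELA VE and 251 VE cyst VE cells at or above 2000 CPM, the sum was 6487 against 7537 CPM, 1.16-fold lower in BELA VE cells, and the median log2 difference was -0.26 against -0.13 over all genes. Now 18 of 42 genes were at least 20% lower in BELA VE cells, where 28.2% of all genes were, and 0 were at least 25% higher, where 12.6% were. Kif23 was at 92.4 against 188 CPM (2.04-fold lower, 1.94 to 2.13), Mki67 at 132 against 230 CPM (1.74-fold lower, 1.67 to 1.82), Gtse1 at 25.0 against 46.3 CPM, and the checkpoint kinase gene Ttk at 34.6 against 57.6 CPM. The 4 genes that differed most over all cells were still higher in BELA VE cells, Aurka at 125 against 107 CPM (1.17-fold, 1.11 to 1.23), Cdc20 1.10-fold (1.06 to 1.15), Hmmr 1.09-fold (1.05 to 1.14) and Ube2c 1.09-fold (1.06 to 1.12), as was Cdca8, of the chromosomal passenger complex, 1.08-fold (1.03 to 1.12). With the limit at 1500 or 3000 CPM the sum of the cells above it was 1.17-fold and 1.13-fold lower in BELA VE cells. VE cyst VE cells also had more RNA of 5 parietal endoderm markers, all 5 higher and summing to 18446 CPM against 7285 CPM in BELA VE cells, with Col4a1 at 5180 against 1579 CPM; their part in the difference was not tested. Within VE cysts these markers summed to 19327 CPM below the limit and 17552 CPM above it.

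BELA VE cells were set against the Epi cells of the same aggregates to compare the lineages within 1 library. These are the same BELA VE cells as in the comparison with VE cysts. The sum was 1.48-fold lower in VE cells (1.47 to 1.48), 36 of 42 genes were lower, and the median log2 difference was -0.41 against -0.08 over all genes tested. More than 2-fold lower were 6 of the 42 (14.3%), where 6.86% of all genes were. They included Ckap2, at 23.2 against 65.9 CPM (2.84-fold, 2.67 to 3.02), and Hmgb2 (2.42-fold, 2.39 to 2.45). The spindle checkpoint genes Bub1b, at 32.4 against 82.5 CPM, and Bub1, at 46.1 against 106 CPM, were also among them. The others were Nusap1 at 65.6 against 150 CPM and Cks1b at 210 against 437 CPM. At least 20% lower were 26 (61.9%), where 33.5% of all genes were. Only Kif23 was at least 25% higher in VE cells, at 75.2 against 49.7 CPM (1.51-fold, 1.44 to 1.58), where 27.7% of all genes were. Birc5 and Hmmr were 1.22-fold and 1.24-fold higher.

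With cells below 2000 CPM left out of both lineages, the sum was 1.19-fold lower in VE cells and the median log2 difference was -0.11 against -0.09 over all genes. This split is also made on the same sum that is then compared. It left out 29.5% of BELA VE cells and 3.46% of BELA Epi cells, so a smaller difference follows from the split itself. Ckap2 (2.31-fold) and Hmgb2 (2.05-fold) were still more than 2-fold lower, where 6.45% of all genes were. At least 20% lower were 13 genes, where 32.4% of all genes were, and 6 were at least 25% higher, where 27.3% were. As shares of the whole list, none of these counts exceeded the share of all genes, so in cells chosen by this sum they do not set the list apart. Those higher in VE cells were led by Kif23 at 92.4 against 50.6 CPM (1.83-fold, 1.75 to 1.91), Hmmr at 181 against 115 CPM, Birc5 at 382 against 252 CPM, and Cenpe, a kinetochore motor, at 146 against 101 CPM. With the limit at 1500 or 3000 CPM the sum was 1.23-fold and 1.11-fold lower in VE cells.

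BELA Epi cells and Epi cyst Epi cells, which compare Epi cells next to VE cells with Epi cells in matrigel, had nearly the same summed level, 1.01-fold higher in BELAs (1.01 to 1.01). The median log2 difference was 0.03 against -0.02 over all genes tested, and no gene was past 2-fold, where 1.93% of all genes were. At least 25% higher in BELA Epi cells were 6 genes, or 14.3%, where 12.6% of all genes were, and 3 were at least 20% lower, where 13% were, so that the first share is near the background. Bub1 was the highest, with 106 against 63.1 CPM (1.67-fold, 1.60 to 1.75), followed by Hmmr with 112 against 79.1 CPM and Prc1, the bundler of midzone microtubules, with 155 against 115 CPM. Kif20a, a kinesin of the central spindle, was at 64.0 against 94.0 CPM (1.47-fold lower, 1.41 to 1.53), Gtse1 at 33.0 against 49.2 CPM and Cdc25c at 14.2 against 21.5 CPM. Single genes of the list thus went both ways while the sum hardly differed.

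Of the BELA VE cells, 72 had at least 200 CPM of Sfrp1 and 470 had less. The 8 AVE markers, Sfrp1 among them, were all higher in the first set, at 1425 against 108 CPM in sum, with the Nodal antagonist gene Cer1 at 10.9 against 0.0421 CPM, while the 4 VE markers were at 1770 against 3001 CPM. The G2/M genes together were 1.17-fold lower in Sfrp1-high cells (1.16 to 1.19), at 4483 against 5253 CPM. The median log2 difference was -0.25 against 0.02 over all genes tested, 13 of 42 genes (31.0%) were at least 20% lower, where 11.7% of all genes were, and 1 was at least 25% higher, where 15.2% were. Hmmr was at 96.6 against 145 CPM (1.51-fold lower, 1.39 to 1.63), Ccnb1 at 156 against 233 CPM (1.49-fold lower, 1.40 to 1.59) and Kif23 at 52.6 against 78.5 CPM (1.49-fold lower, 1.34 to 1.67). Of the 6 genes that were higher, Ckap2 differed most, at 30.8 against 22.1 CPM (1.40-fold higher, 1.20 to 1.62), followed by Kif2c, a microtubule-depolymerising kinesin, at 31.5 against 27.5 CPM (1.15-fold, 0.992 to 1.33) and Nusap1 at 72.9 against 64.6 CPM (1.13-fold, 1.03 to 1.24). Markers of other cell types moved with this split: 4 of 5 parietal endoderm markers were lower in Sfrp1-high cells, at 2923 against 7932 CPM in sum, and the 4 mesoderm markers summed to 145 against 5.22 CPM, mostly through Fgf8 at 139 against 4.99 CPM, while T and Mesp1 were at 0 in Sfrp1-high cells; their part in the difference was not tested.

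The share of cells below the limit also differed. Below 2000 CPM lay 30 of the 72 Sfrp1-high cells (41.7%, 30.2 to 53.9%) and 130 of the 470 others (27.7%, 23.7 to 31.9%), a difference of 14.0 points (2.52 to 26.2). The interval of this difference included 0 with Sfrp1-high set at 100 CPM (8.96 points, -1.17 to 19.9) and with a looser cell filter (10.1 points, -0.37 to 21.4). High-scoring cells were 11 of 72 (15.3%, 7.88 to 25.7%) and 80 of 470 (17.0%, 13.7 to 20.7%), a difference of -1.74 points (-9.23 to 8.78), and with the high cut at 2 times the median of all cells the sign turned, to 4.60 points (0.27 to 13.0). Among cells at or above the limit, 42 and 340, the sum was 0.984 times that of the others (0.972 to 0.996) and the median log2 difference was -0.03. With a limit of 3000 CPM the ratio of the sums was 1.05 (1.03 to 1.06), on the other side of 1. Here too the split is made on the sum that is compared, and it left out a larger share of the Sfrp1-high cells. In these cells Ccnb1, at 224 against 287 CPM, and Hmmr, at 146 against 186 CPM, were still 1.28-fold and 1.27-fold lower, and Nusap1, at 113 against 82.8 CPM, and Ckap2, at 41.9 against 26.9 CPM, 1.36-fold and 1.56-fold higher.

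**Figure D5:**
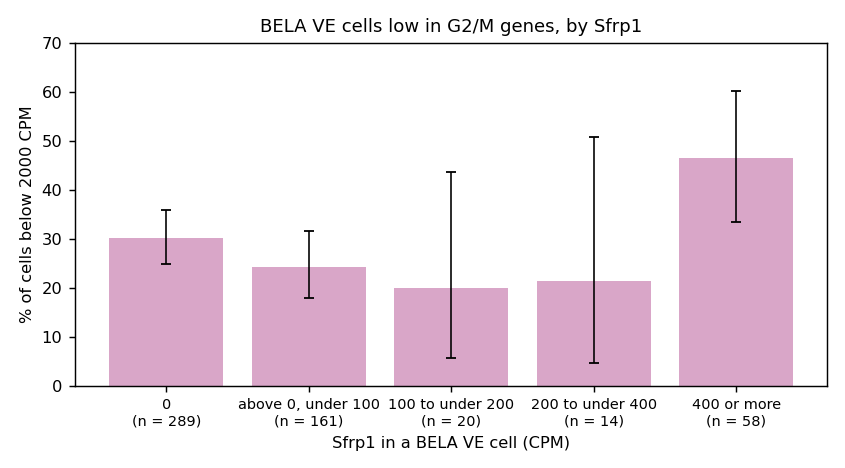
Share of BELA VE cells below 2000 CPM of the 42 genes (%, bars) in 5 classes of Sfrp1 level, with exact 95% binomial intervals. The 58 cells with at least 400 CPM of Sfrp1 stand highest at 46.6%, and the 4 lower classes lie between 20% and 30.1%.

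By class of Sfrp1 level, the share below the limit was highest in the cells with the most Sfrp1. Of the 58 cells with 400 CPM or more, 27 were below the limit (46.6%, 33.3 to 60.1%), and of the 14 with 200 to under 400 CPM, 3 were (21.4%, 4.66 to 50.8%). Cells with no Sfrp1 UMI were at 30.1% (24.9 to 35.8%) and those above 0 and under 100 CPM at 24.2% (17.8 to 31.6%). The shares did not climb step by step with Sfrp1, and the intervals of the 2 small classes are wide. That of the 14 cells includes the 46.6% of the top class. Median depth was 135832 UMIs in these 14 cells and 79515 UMIs in the 58. The part of depth in the shares of these classes was not tested.

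Further genes of the cycle were read from 4 lists. S phase genes differed between the lineages more than G2/M genes did: in BELA VE against BELA Epi cells, where 6.86% of all genes were more than 2-fold lower, 23 of 42 were and the median log2 difference was -1.02, led by Cdca7 at 27.6 against 152 CPM, the chromatin remodeller gene Hells at 70.6 against 314 CPM and the histone chaperone gene Nasp at 321 against 1084 CPM. Of 49 other mitotic genes, 6 were more than 2-fold lower in BELA VE than in BELA Epi cells, the lowest being G2e3, a ubiquitin ligase, at 23.6 against 95.8 CPM. The kinetochore gene Zwint went the other way, at 258 against 97.2 CPM. In BELA VE against VE cyst VE cells only Sapcd2 of the 4 lists, at 24.6 against 7.61 CPM, was past 2-fold, where 3.5% of all genes were. Of 24 regulators of G2/M transcription and entry, 2 were more than 2-fold lower in BELA VE than in BELA Epi cells, the NF-Y subunit gene Nfyb at 41.7 against 149 CPM and the E2F partner gene Tfdp2 at 20.3 against 71.8 CPM, a share near that of all genes. In Sfrp1-high against other BELA VE cells, the lowest of the listed genes were Mybl2, the B-Myb activator of G2/M genes, at 25.7 against 50.3 CPM, and Ccna2 at 86.8 against 148 CPM. Of 17 genes of the anaphase-promoting complex and its partners, 0 were past 2-fold between the VE groups or between the Epi groups. In BELA VE against BELA Epi cells, 0 were more than 2-fold lower. Their median log2 difference was between -0.40 and 0.08 over the 4 comparisons. Past 2-fold were 3.5% of all genes between the VE groups and 1.93% between the Epi groups, and 6.86% were lower in BELA VE than in BELA Epi cells. At such shares, 0 of 17 genes does not set this list apart. In VE cells below against above the limit this list had a median log2 ratio of -0.08 in BELAs and -0.19 in VE cysts, but its sum was 1023 against 1526 CPM and 1195 against 1736 CPM. More than 2-fold lower in both libraries were 2 of its 17 genes, where 1.58% and 2% of all genes were in BELAs and VE cysts, the inhibitor gene Fbxo5 at 12.9 against 58.0 CPM and 6.43 against 76.1 CPM, and Ube2s, the chain-extending partner of Ube2c, at 246 against 620 CPM and 274 against 615 CPM.

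Across single cells, most of the 42 genes followed the sum of the other 41. Averaged over the 4 large groups, Pearson's r on log values was highest for Cenpf (0.83), Tpx2 (0.83) and Ccnb1 (0.82) and lowest for Ckap2 (0.42), Gtse1 (0.43) and Cks1b (0.47). The averages hide a difference between groups, since every gene had a lower r in Epi cyst Epi cells than in both VE groups. In Epi cyst Epi cells r was lowest for Ccnb2 (0.10), Hmgb2 (0.12) and Cks1b (0.15), against 0.72, 0.81 and 0.74 in BELA VE cells. The VE values cover cells on both sides of the 2000 CPM limit. These are descriptions over cells that share a library and depth. Of 4117 genes outside the list with at least 20 CPM in each group, those most like the sum, ranked by the lowest r of the 4 groups, included Arl6ip1 (0.64), Incenp (0.62), Kpna2 (0.55), Ccnf (0.53), Jpt1 (0.53), Smc4 (0.52), Tuba1c (0.50), Dbf4 (0.50) and Pimreg (0.49). Of these, Incenp, Ccnf, Smc4 and Pimreg were in the list of other mitotic genes.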

How the data were processed

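Single cells of 3 libraries, 1 per type of aggregate, were profiled with 10x Genomics 3′ chemistry. The authors aligned reads to mm10 and counted UMIs with Cell Ranger 4.0.0, per the labels, and the deposited tables hold raw counts per gene and barcode (32285 genes), with no normalization. The study's cell filter (4000 genes or more, mitochondrial UMIs of 10% or less) was applied; kept libraries held 126625916 (BELAs), 40962566 (Epi cysts) and 39793263 UMIs (VE cysts), so that 3 counts in a whole library equal 0.0237, 0.0732 and 0.0754 CPM. Levels are pooled counts of a group over its UMIs, with exact Poisson intervals; shares carry exact Clopper-Pearson intervals, their differences Newcombe intervals, and ratios exact conditional intervals. Log2 ratios have 5 CPM added to both levels, and a gene counted as tested when either group had at least 1 CPM. Calculations used Python 3.11.15 with NumPy 2.4.6, SciPy 1.17.1 and pandas 2.3.3, and were tested on simulated data.

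No count model or p-value was computed, since every group is 1 library. No doublet caller was run; cells with over 10% of marker UMIs from the other lineage were left out as an alternative. Free RNA was not measured, as no cell type lacks these genes. Genes were named by rule: the most abundant of each role group; in each comparison those past 2-fold and the 3 highest and 3 lowest; Mki67, Top2a, Ccnb1, Cdk1, Plk1 and Aurka; the 3 most and 3 least correlated; and the outer genes of the further lists; and the genes outside the list most like its sum, of which 1 is not reported here. Genes named for their range below and above 2000 CPM, and those named again among cells above it, were chosen after their values were seen, as was the limit itself. The members and lists were chosen with earlier results of these data known. Reads of near-identical copies, such as Ccnb1-ps and Cks1brt, may be split in the counting. Other depths, limits, filters, denominators and added constants were tried.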

Additional observations from a re-analysis of the deposited data

Results flagged for a closer look

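The barcodes that the cell filter left out also carried UMIs of the 42 genes, which no comparison used. Their pooled level was 5028 CPM in 810 barcodes of BELAs (4977 to 5079, median depth 6229 UMIs), 6626 CPM in 419 barcodes of Epi cysts (6525 to 6729, 3979 UMIs) and 2980 CPM in 256 barcodes of VE cysts (2909 to 3052, 6724.5 UMIs). All lay far above the level that 3 counts would give, 0.401 to 1.32 CPM. The order of the libraries, Epi cysts highest and VE cysts lowest, was that of the kept cells.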

How the results depend on the processing

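Each group was 1 library and the cells of a library are no replicates, so depth limits single genes in small groups, and no fold or share here has a replicate error. No paired analysis was possible because no group has a second library. Of 186 alternative values, 145 stayed within the counting interval of the reported value or, for counts of genes, close to it; the cause of the other moves was not tested. Summed levels moved most often, since their counting intervals are narrow. In log2, for BELA VE over VE cyst VE, BELA Epi over Epi cyst Epi, BELA VE over BELA Epi and Sfrp1-high over other BELA VE cells in this order, they were 0.36, 0.0010, -0.59 and -0.18 with thinning, 0.34, 0.055, -0.40 and -0.29 without Hmgb2, Ube2c and Cks2, 0.27, 0.025, -0.62 and -0.27 without mixed cells, 0.36, 0.049, -0.70 and -0.21 without the 50 most abundant genes in the denominator, and 0.40, -0.0075, -0.62 and -0.17 as a mean over cells, which turns the second. The looser cell filter (3000 genes, 20% mitochondrial UMIs) gave 0.32 for the first and -0.20 for the last, and Sfrp1 limits of 100 and 400 CPM gave -0.10 and -0.25 for the last. The median log2 of the genes in BELA VE over BELA Epi was -0.55 with the other denominator.

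The difference in high-scoring cells was -2.87 points between the Epi groups and -30.8 points between VE and Epi of BELAs with the cut at the median (-7.67 to 1.99 and -35.8 to -25.6). With the cut at 2 times the median it was -1.73 points (-4.06 to 0.57) between the VE groups and -2.12 points (-4.13 to 0.08) between BELA lineages. The latter was -11.8 points without the 3 most abundant genes, -11.6 with genes scaled to a mean of 1 and -24.0 with the other denominator. In Sfrp1-high cells it lay between -5.29 and 4.60 points over 10 alternatives, above 0 in 6 of them. The share below 2000 CPM kept its direction in the 4 comparisons; with a limit of 3000 CPM, added after the data were seen, it differed by 33.5 points between BELA lineages. In Sfrp1-high cells its interval included 0 with the looser filter (10.1 points, -0.37 to 21.4) and with 100 CPM of Sfrp1 (8.96 points, -1.17 to 19.9). In cells at or above the limit, summed levels in log2 were -0.18, 0.044, -0.15 and, on the other side of 0, 0.064 for the 4 comparisons with 3000 CPM, and -0.30 for the third with 1500 CPM. With 20 CPM added, 1 gene in place of 6 was past 2-fold lower in BELA VE against BELA Epi cells, and in Sfrp1-high cells 8 were at least 20% lower and 0 at least 25% higher.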
